A study of Homo sapiens with 9 samples.

Results

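L1CAM, INA, TUBB3 and NRGN are genes usually seen in neurons, and all 4 were measured in MDA-MB-468, a cell line from a triple-negative carcinoma of the human breast. They are 4 of 27315 gene symbols in the deposited table and were picked by name because earlier results of these data had shown them to differ between the hairpins and the control, so their differences are given below as description, without a test. Polyadenylated RNA was sequenced from 9 libraries in 3 groups of 3: cells carrying the BBOX1 short hairpin RNA named sh1, cells carrying the BBOX1 hairpin named sh6, and cells carrying a scrambled control hairpin. Cells of all 3 groups had been infected with lentivirus made in 293T packaging cells. The infected cells were then selected with puromycin at 2 µg per ml, hygromycin or blasticidin, as the marker of the vector required. The protocol says that RNA came from triplicates and not that these were separate cultures, so p-values reflect the spread among these libraries and that spread may be technical. The sh1 and sh6 comparisons share the control libraries.

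Neurons build long processes, and the 4 genes serve different parts of that work. L1CAM encodes a cell-surface adhesion molecule of the immunoglobulin superfamily that guides axons and that carcinomas can also express, often at invasive edges. INA encodes alpha-internexin, a neuronal intermediate filament subunit that assembles with the neurofilament proteins. TUBB3 encodes class III beta-tubulin, a microtubule subunit typical of neurons that many carcinomas also make. NRGN encodes neurogranin, a small postsynaptic protein that binds calmodulin and is a substrate of protein kinase C. REST, a repressor that silences many neuronal genes outside the nervous system, is a common reference point for such genes.

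The libraries held 15729876 to 19732683 recovered reads, and 13165 genes had a mean level high enough to be tested. BBOX1, the target of both hairpins, had 324, 346 and 328 normalised counts in the sh1 libraries and 606, 618 and 581 in the sh6 libraries, against 2703, 2785 and 2360 in the control libraries. BBOX1 fell 7.87-fold with sh1 and 4.35-fold with sh6 (adjusted p = 3.7e-25 and 6.2e-22 in limma). Of all genes tested, 29.0% were called higher and 30.0% lower with sh1, and 34.2% higher and 33.6% lower with sh6 (limma, adjusted p under 0.05), and 30.8% were called higher and 28.9% lower with sh6 than with sh1. With voom on recovered counts, which scales to library totals, the median log2 difference of all genes with sh1 was 0.11 in place of 0.00, and 5316 genes were called higher and 2858 lower. Under that setting 2966 genes were called higher and 4948 lower with sh6 than with sh1, the reverse of the order given above. In the same direction with both hairpins, 18.9% were called higher and 19.4% lower. In opposite directions, 3.06% were higher with sh1 and lower with sh6, and 3.33% lower with sh1 and higher with sh6. Counts of called genes in the lists below are to be read beside these shares. All 4 neuronal genes lay above the testing level of 6.02 on the deposited log2 scale in each of the 9 libraries.

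Each gene lies on its own chromosome. L1CAM is on the minus strand of chromosome X at 153861514 to 153886174 (GRCh38, GENCODE 29), and its transcript L1CAM-205 has 29 exons and 1257 codons. INA spans 103277163 to 103290351 of chromosome 10, on the plus strand, with 1 annotated transcript of 3 exons and 499 codons. TUBB3 spans 89921392 to 89938761 of chromosome 16, also on the plus strand, and TUBB3-201 has 4 exons and 450 codons. NRGN, with the shortest coding sequence of the set at 78 codons, spans 124739846 to 124747210 of chromosome 11 on its plus strand. GENCODE places a further protein-coding gene over L1CAM and over TUBB3 on the same strand, and genes on the opposite strand over L1CAM, NRGN and TUBB3. LCA10, on the opposite strand of L1CAM, was at 0 in every library. Whether the counting used strand is not stated, and reads of such partners cannot be told apart.

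The promoters of the 4 genes are shown because the 2 genes that were higher with both hairpins and the 2 that followed 1 hairpin can be set side by side. Each is the 250 bases before a RefSeq start (GRCh38.p14), read 5′ to 3′ on the strand of the gene. Capitals mark matches on either strand to GGGCGG, the GC box, or to CCAAT, the CCAAT box. The INA window is chr10:103276888-103277137, the TUBB3 window chr16:89923092-89923341, the L1CAM window chrX:153876015-153876264 on the minus strand and the NRGN window chr11:124739692-124739941. The L1CAM window stands 10160 bases inside the gene, measured from the start of L1CAM-205, since the RefSeq starts differ from that of the GENCODE transcript. The TUBB3 window also lies within the span of its gene, and the NRGN window partly so. Their RefSeq starts were 63 and 96 bases from those of the GENCODE transcripts used.
INA: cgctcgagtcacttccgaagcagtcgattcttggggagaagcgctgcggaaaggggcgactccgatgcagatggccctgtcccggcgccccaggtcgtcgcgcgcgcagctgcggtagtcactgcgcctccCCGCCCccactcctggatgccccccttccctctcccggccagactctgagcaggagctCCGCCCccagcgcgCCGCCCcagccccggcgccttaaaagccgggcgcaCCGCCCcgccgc
TUBB3: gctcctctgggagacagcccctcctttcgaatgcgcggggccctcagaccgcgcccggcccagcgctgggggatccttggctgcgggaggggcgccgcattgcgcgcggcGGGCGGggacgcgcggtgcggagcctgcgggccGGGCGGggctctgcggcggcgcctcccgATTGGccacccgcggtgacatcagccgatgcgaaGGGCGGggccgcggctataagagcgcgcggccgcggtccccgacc
L1CAM: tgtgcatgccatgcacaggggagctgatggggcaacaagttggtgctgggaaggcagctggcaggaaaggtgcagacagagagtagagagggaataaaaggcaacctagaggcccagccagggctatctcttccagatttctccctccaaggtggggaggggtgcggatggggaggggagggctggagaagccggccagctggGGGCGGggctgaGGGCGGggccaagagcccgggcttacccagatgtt
NRGN: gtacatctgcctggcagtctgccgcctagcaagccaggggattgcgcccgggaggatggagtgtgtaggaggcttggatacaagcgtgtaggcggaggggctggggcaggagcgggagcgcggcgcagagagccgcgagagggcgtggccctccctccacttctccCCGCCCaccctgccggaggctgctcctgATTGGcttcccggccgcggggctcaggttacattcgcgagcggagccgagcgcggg

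All 4 windows held a GC box, as did 42.5% of 34943 RefSeq promoter windows of the same length. TUBB3 and NRGN held a CCAAT box, found in 32.0% of the windows. INA, TUBB3 and NRGN are rich in CG dinucleotides, with 30, 39 and 23 of them, while the L1CAM window has 5 and the median window 11. Neither the left part of the RE1 element that REST binds, TTCAGCACC (0.289% of windows), nor its right part, GGACAGCGC (0.429%), was in any of the 4. The same was true of TATAAA (10.8%), of the E-box CACCTG (17.5%) and of the TEAD word GGAATG (11.9%). These are matches of letters in a short window, on either strand, and not sites. The sh1 hairpin is directed at the BBOX1 sequence shown here because L1CAM and NRGN differed with sh1, and its capitals mark the 7 bases that pair with bases 2 to 8 of the guide.
sh1: cctctacctttgtGGACTTTa
That 7-base word was absent from the annotated 3′ untranslated regions of all 4 genes, while 11.1% of 17698 genes held it. The best match of the 21 bases to a transcript of any of the 4 was 14 of 21 bases, in L1CAM. The sequence carried by sh6 is not given in the labels, which list a second target under another name, so no word was searched for sh6.

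L1CAM followed sh1 alone. Its normalised count was 459, 466 and 495 in the sh1 libraries and 30.1, 28.2 and 53.2 in the sh6 libraries, against 26.9, 29.7 and 26.4 in the control libraries. All sh1 libraries stood far above the others, while the sh6 libraries overlapped the controls and only sh6 replicate 3 was clearly above them. The mean of 473 ± 19.1 with sh1 (SD, n = 3) was 17.1-fold that of the control, 27.7 ± 1.8 (SD, n = 3). The mean of 37.2 ± 13.9 with sh6 (SD, n = 3) was 1.34-fold that of the control. On the deposited log2 scale the difference from control was 2.76 with sh1 and 0.17 with sh6 (SE 0.10 each), and without sh6 replicate 3 the second value was 0.03.

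INA was higher with both hairpins. It had 251, 213 and 220 normalised counts in the sh1 libraries and 345, 307 and 354 in the sh6 libraries, against 56.9, 54.4 and 44.9 in the control libraries. No group overlapped another, and the order was sh6, then sh1, then control. The means were 228 ± 20.3 with sh1, 335 ± 25.3 with sh6 and 52.1 ± 6.34 in the control (SD, n = 3 each), which is 4.38-fold and 6.44-fold the control mean. The log2 differences from control on the deposited scale were 1.43 with sh1 and 1.89 with sh6 (SE 0.0865 each).

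TUBB3 was the most counted of the 4 and showed the same order of groups as INA with smaller folds. Its normalised count was 2082, 2333 and 2311 in the sh1 libraries and 4049, 3969 and 3488 in the sh6 libraries, against 1496, 1458 and 1707 in the control libraries. Again no group overlapped another. The means of 2242 ± 139 with sh1 and 3835 ± 303 with sh6 were 1.44-fold and 2.47-fold the control mean of 1554 ± 134 (SD, n = 3 each). The log2 differences from control were 0.51 with sh1 and 1.27 with sh6 (SE 0.0640 each).

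NRGN was low with sh1 and stayed near the control with sh6. Its normalised count was 31.8, 50.2 and 33.8 in the sh1 libraries and 381, 295 and 267 in the sh6 libraries, against 262, 272 and 193 in the control libraries. All sh1 libraries lay below all the others, and the sh6 libraries overlapped the controls. The sh1 mean of 38.6 ± 10.1 was 6.28-fold lower than the control mean of 242 ± 43.0 (SD, n = 3 each), and the sh6 mean of 314 ± 59.4 (SD, n = 3) was 1.30-fold the control mean. The log2 differences from control were -1.72 with sh1 and 0.31 with sh6 (SE 0.109 each), and the second value was 0.18 without sh6 replicate 1 or without control replicate 3.

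**Figure D1:**
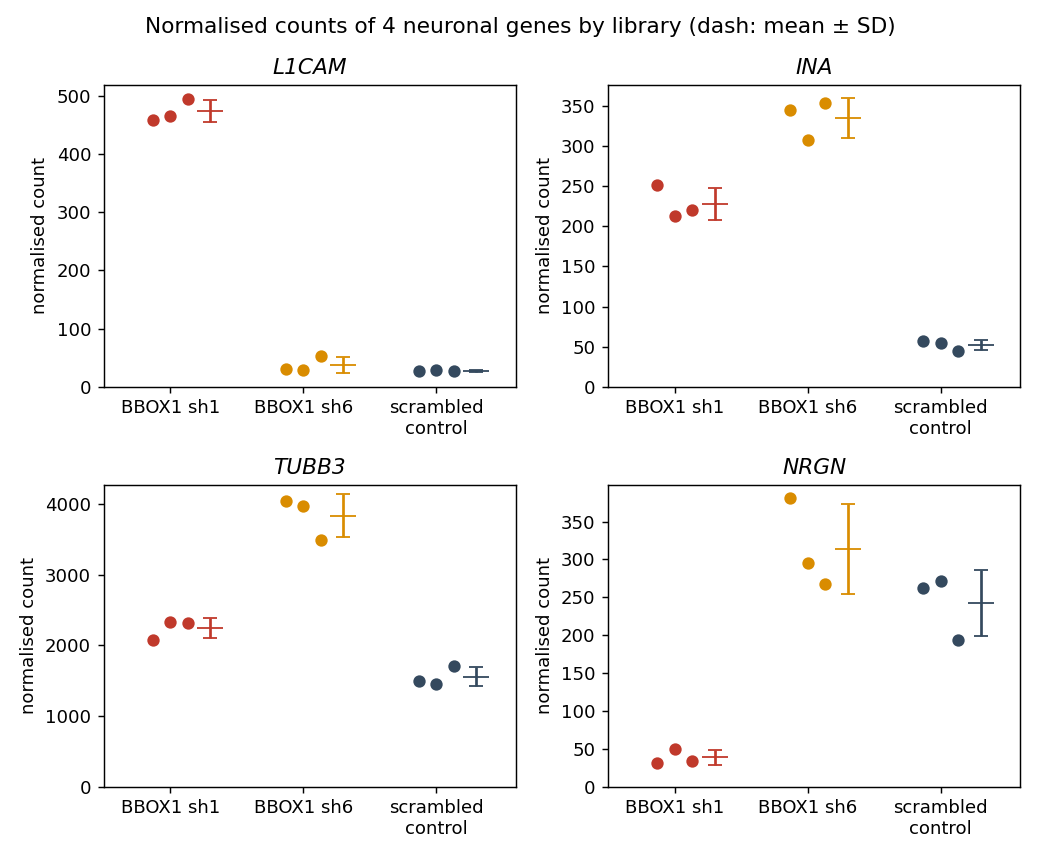
Normalised counts of L1CAM, INA, TUBB3 and NRGN on linear axes from 0, with 1 point per library in the groups BBOX1 sh1, BBOX1 sh6 and scrambled control, and a dash with bars for the mean ± SD of 3 libraries. L1CAM is high with sh1 only, NRGN is low with sh1 only, and INA and TUBB3 run from sh6 at the top through sh1 to control.

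Set directly against sh1, sh6 gave higher INA, TUBB3 and NRGN and lower L1CAM. INA was 1.47-fold and TUBB3 1.71-fold higher with sh6 than with sh1, NRGN was 8.13-fold higher, and L1CAM was 12.7-fold lower. The sh6 minus sh1 differences on the deposited log2 scale were 0.46, 0.76, 2.03 and -2.59. BBOX1 itself was 1.81-fold higher with sh6 than with sh1. The sh1 libraries of L1CAM, INA and TUBB3 lay wholly above the control libraries, a relation that held for 31.7% of all genes tested, and those of NRGN wholly below, as for 32.4%. The sh6 libraries of INA and TUBB3 lay wholly above the control libraries, as for 34.6% of genes, and none of the 4 genes lay wholly below them with sh6, as 33.9% did. All 6 hairpin libraries of INA and TUBB3 lay above the controls, as for 19.9% of genes. The sh6 libraries of INA, TUBB3 and NRGN lay wholly above those of sh1, as for 33.8% of genes, and those of L1CAM wholly below, as for 31.6%. Since the genes were picked from these contrasts, nothing is read from those counts.

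The authors' deposited table gives a log2 fold change of 3.21 for L1CAM (adjusted p = 0.00726 in the authors' deposited table), although the sh6 libraries overlapped the controls. Over the 13165 genes tested, the fold changes of the authors' deposited table differed by a median of 0.000456 from the log2 ratio of the mean of all 6 hairpin libraries to the control mean, against 0.139 from the sh1 differences and 0.122 from the sh6 differences. That pooled ratio was 3.21 for L1CAM, 2.44 for INA, 0.97 for TUBB3 and -0.46 for NRGN, the same values as in the authors' deposited table. For L1CAM and NRGN the pooled value therefore averages hairpins that were far apart. NRGN has an adjusted p of 0.738 in the authors' deposited table while its sh1 libraries lay below all 6 others.

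The other members of the L1 family did not share the pattern of L1CAM. NFASC, which encodes neurofascin, was the only one of 3 that could be tested, and it fell 1.64-fold with each hairpin, to 630 ± 35.2 normalised counts with sh1 and 631 ± 33.3 with sh6, against 1032 ± 76.6 in the control (SD, n = 3 each, adjusted p = 7e-10 and 4.9e-10 in limma). CHL1 was at 0 in 8 of 9 libraries and NRCAM never passed 6.95 normalised counts. Of 18 tested genes for L1 partners and processing, 8 were called higher and 6 lower with sh1, and 9 higher and 6 lower with sh6, with median log2 differences of 0.07 and 0.15 beside 0.00 and 0.01 over all genes. ANK1 was tested only through the hairpin libraries, since its control mean of 11.1 lay under the testing level of 16.2 normalised counts. Without ANK1, 7 were higher and 6 lower with sh1, and 8 higher and 6 lower with sh6, of 17.

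Among those partners, ADAM17 and ADAM10, proteases that shed the L1 ectodomain, fell with both hairpins, while the protease gene BACE1 rose with both. ADAM17 fell 2.75-fold with sh1 and 1.73-fold with sh6 (adjusted p = 1.2e-18 and 1.9e-12 in limma). ADAM10, named after its values were seen, fell 1.18-fold and 1.17-fold. MSN, which encodes moesin, an actin linker that binds the L1 tail, fell to 0.582 and 0.608 of the control mean. EZR and RDX, which encode the related ezrin and radixin and were named after their values were seen, went the other way. EZR rose 1.16-fold and 1.24-fold, and RDX 1.36-fold and 1.43-fold. ANK3, which encodes an ankyrin that anchors L1 family proteins, fell to 0.786 and 0.509 of the control mean. SEMA3A, a repellent ligand whose receptor complex includes L1, rose 1.86-fold and 1.66-fold. ITGB1, the integrin beta 1 chain of receptors that bind L1, fell 2.05-fold with sh1 and rose 1.21-fold with sh6, and the hairpins differed by 1.29 on the log2 scale.

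Of 9 tested genes for other neural adhesion and recognition molecules, 3 were higher and 2 lower with sh1, and 5 were higher and 3 lower with sh6, with median log2 differences of 0.05 and 0.32. NCAM1, the neural cell adhesion molecule, rose 2.66-fold and 1.33-fold with sh1 and sh6, and was lower with sh6 than with sh1 (log2 difference -0.84, adjusted p = 5.4e-10 in limma). CADM4, a cell adhesion molecule of the immunoglobulin superfamily, rose 1.69-fold and 2.96-fold. CNTNAP1, a contactin-associated protein of the axon, rose 1.70-fold and 2.43-fold. Its relative CNTNAP2 was at 0.344 and 0.155 of the control mean, with its sh6 mean under the testing level of 16.2 normalised counts. Without CNTNAP2 the list had 3 higher and 1 lower with sh1, and 5 higher and 2 lower with sh6, of 8. Of the list of regulators of the epithelial-mesenchymal transition and inducers of L1CAM, 6 of 11 tested genes rose and 3 fell with sh1, and 5 rose and 2 fell with sh6. FN1, which encodes fibronectin, rose 1.77-fold and 1.55-fold, TGFB2, a transforming growth factor, 1.54-fold and 1.68-fold, and the transcription factor TWIST2 1.81-fold and 2.10-fold. SNAI1, which encodes the repressor Snail, fell to 0.378 and 0.683 of the control mean, and its call with sh6 was lost without sh6 replicate 3. TCF7L2, a partner of beta-catenin, fell with sh1 to 0.854 of the control mean and rose 1.63-fold with sh6, and the sh1 call was lost with voom on recovered counts and without sh1 replicate 3 or control replicate 1.

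Intermediate filament genes went separate ways beside INA. SYNM, which encodes the filament protein synemin, rose 4.18-fold and 4.34-fold with sh1 and sh6, to 297 ± 23.2 and 308 ± 32.8 normalised counts, against 71.1 ± 11.7 in the control (SD, n = 3 each, adjusted p = 3.3e-15 and 1e-15 in limma). NEFH, the heavy neurofilament subunit, had 314, 302 and 348 normalised counts with sh1 and 32.3, 30.1 and 42.6 with sh6, against 231, 190 and 253 in the control. The NEFH groups did not overlap, with sh1 above the control and sh6 far below it. NEFH rose 1.43-fold with sh1 and fell 6.42-fold with sh6 (adjusted p = 0.00022 and 2.9e-16 in limma). NES, which encodes nestin of neural progenitors, rose 3.06-fold with sh6 and had 27.9 ± 5.55 normalised counts with sh1 against 21.1 ± 5.37 in the control (SD, n = 3 each, adjusted p = 0.18 in limma). VIM, which encodes vimentin, fell 1.85-fold with sh6, and with sh1 it had 185 ± 34.6 normalised counts against 224 ± 25.3 in the control (SD, n = 3 each, adjusted p = 0.0601 in limma). The VIM difference with sh1 was called under quantile normalisation, with a log2 difference of -0.26, and without sh1 replicate 3 or control replicate 3. Of these 4 tested genes, 2 were called higher with sh1 and 0 lower, and 2 were higher and 2 lower with sh6. NEFL and NEFM, the subunits that pair with alpha-internexin in neurons, were near absent: NEFM was at 0 in all 9 libraries, where 3 reads per library would be 2.64 to 3.23 normalised counts, and NEFL never passed 0.91.

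Most beta-tubulin genes rose. Of 5 tested beta-tubulins other than TUBB3, 4 were called higher with sh1 and 5 with sh6, with 0 lower in either, and the median log2 differences were 0.45 and 0.88 beside 0.00 and 0.01 over all genes. TUBB6 rose by 1.85-fold and 1.91-fold with sh1 and sh6. TUBB4B rose by 1.26-fold and 1.85-fold. TUBB2B rose by 2.42-fold and 4.33-fold, and TUBB2A by 1.56-fold and 1.91-fold. TUBB2A and TUBB2B are close copies, so reads may be split between them. TUBB, the main beta-tubulin of these cells, rose 1.38-fold with sh6 (adjusted p = 3.9e-08 in limma) and had a log2 difference of 0.07 with sh1 (adjusted p = 0.335). The TUBB difference with sh1 was called under quantile normalisation, at 0.28, and with voom on recovered counts, at 0.18, and the sh6 minus sh1 difference of 0.40 was -0.03 under quantile normalisation.

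Per kilobase of transcript, TUBB3 had 1267 ± 78.6 normalised counts with sh1 and 2168 ± 171 with sh6, against 878 ± 75.9 in the control (SD, n = 3 each). On the same scale TUBB had 25370 ± 532 with sh1 and 33459 ± 1240 with sh6, against 24242 ± 1582 in the control. TUBB3 made up 4.15 ± 0.29% of the beta-tubulin total per kilobase with sh1 and 5.31 ± 0.28% with sh6, against 3.15 ± 0.10% in the control (SD, n = 3 each). In single libraries that share was 3.83%, 4.39% and 4.23% with sh1 and 5.38%, 5.54% and 4.99% with sh6, against 3.04%, 3.16% and 3.25% in the control, and the groups did not overlap. These shares rest on 1 annotated transcript length per gene.

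**Figure D2:**
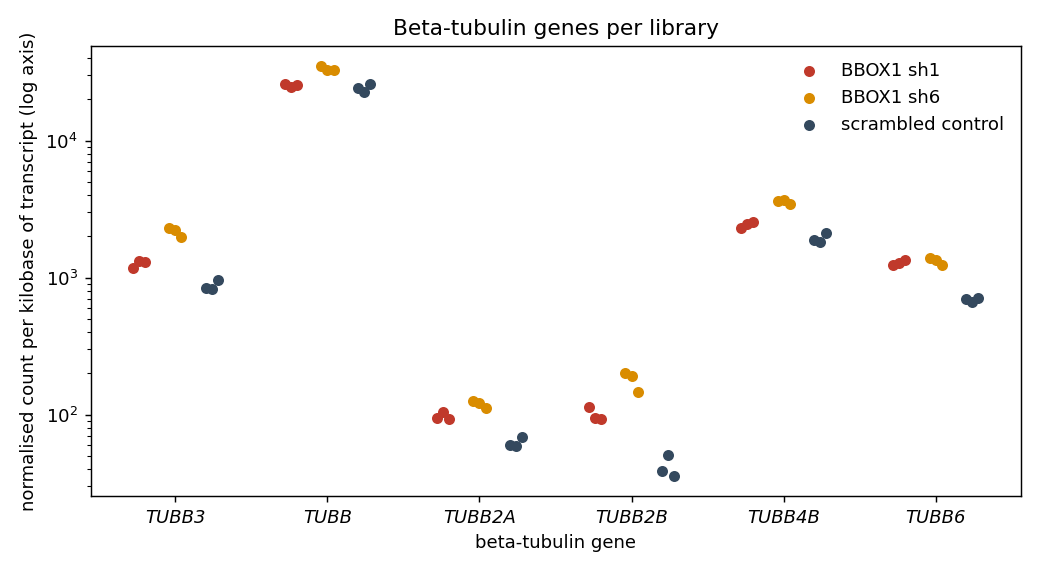
Normalised count per kilobase of transcript, on a log axis, for TUBB3 and the 5 other beta-tubulin genes that were tested, with 1 point per library in the order sh1, sh6, scrambled control within each gene. TUBB lies near 24242 to 33459 on average in each group, far above TUBB3 at 878 to 2168, and the control points are lowest for TUBB3, TUBB2A, TUBB2B, TUBB4B and TUBB6.

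Alpha-tubulins and the microtubule-associated proteins moved in the same direction for the most part. Of 7 tested alpha- and gamma-tubulin genes, 4 were higher and 0 lower with sh1, and 5 were higher and 2 lower with sh6. The median log2 differences of these genes were 0.16 and 0.41, and 3 of them were not called with sh1. TUBA1A rose 1.69-fold and 1.34-fold, TUBA1B 1.19-fold and 1.52-fold, TUBA1C 1.12-fold and 1.62-fold, and the gamma-tubulin TUBG1 1.20-fold and 1.17-fold. The 2 that were lower with sh6, named after their values were seen, were TUBA4A, which fell 2.13-fold, and TUBG2, which fell 1.32-fold. Of 13 tested genes for neuronal microtubule-associated proteins, 8 were higher and 1 lower with sh1, and 11 were higher and 1 lower with sh6, with median log2 differences of 0.37 and 0.49. STMN1, which encodes the microtubule-destabilising stathmin, rose 2.14-fold and 2.95-fold, to 15875 ± 270 normalised counts with sh1 and 21860 ± 1051 with sh6, against 7406 ± 154 in the control (SD, n = 3 each, adjusted p = 9.7e-18 and 8.8e-22 in limma).

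DPYSL5, a collapsin response mediator of growing axons, had 79.0, 88.4 and 76.5 normalised counts with sh1 and 86.3, 58.4 and 84.0 with sh6, against 11.4, 4.09 and 7.04 in the control. The 6 hairpin libraries of DPYSL5 lay above all controls, with means 10.8-fold and 10.1-fold that of the control. KIF1A, the axonal kinesin that carries synaptic vesicle precursors, rose 3.69-fold and 3.56-fold (adjusted p = 9.5e-15 and 1.3e-14 in limma). MAP1A, a microtubule-binding protein of dendrites, had 28.0 and 26.6 normalised counts on average with sh1 and sh6, against 6.66 in the control. DPYSL5 and MAP1A were tested only because the hairpin libraries were high, their control means lying under the testing level of 16.2 normalised counts, and DCLK1 lay under it with sh1. Without these 3 genes the list had 6 higher and 0 lower with sh1, and 8 higher and 1 lower with sh6, of 10. DCLK1, a doublecortin-like kinase, was at 0.283 of the control mean with sh1 and 1.81-fold with sh6. Of 25 tested genes for tubulin folding and modification, 13 were higher and 2 lower with sh1, and 9 were higher and 7 lower with sh6. The shares over all genes were 29.0% higher and 30.0% lower with sh1, and 34.2% and 33.6% with sh6. TTLL12, a member of the tubulin tyrosine ligase-like family, rose 1.65-fold and 1.85-fold, the folding cofactor TBCD 1.42-fold and 1.83-fold and the tubulin tyrosine ligase TTL 1.68-fold and 1.25-fold. TTLL7, a polyglutamylase, fell to 0.848 and 0.572 of the control mean, and its call with sh1 was lost with voom and without sh1 replicate 3. HDAC6, a tubulin deacetylase, rose 1.18-fold with sh1 and fell to 0.583 of the control mean with sh6, and AGTPBP1, which trims glutamates from tubulin tails, rose 1.77-fold with sh1 and fell to 0.753 with sh6.

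NRGN has relatives and partners of its own. GAP43, a growth cone protein with the same type of calmodulin-binding motif, was at 0 in all 9 libraries, and PCP4 never passed 3.11 normalised counts. Of 17 tested genes for neurogranin relatives, calmodulin and kinases, 5 were higher and 6 lower with sh1, and 2 were higher and 6 lower with sh6, with median log2 differences of -0.09 and -0.06. CAMK2D, a calmodulin-dependent kinase, fell to 0.669 and 0.699 of the control mean, MARCKS, a membrane substrate of protein kinase C, to 0.865 and 0.738, and the kinase CAMKK1 rose 1.86-fold and 2.24-fold. The MARCKS fall with sh1 was lost under quantile normalisation, at a log2 difference of -0.02, and with voom on recovered counts, at -0.10. PPP3CB, a catalytic subunit of calcineurin, rose 1.36-fold with sh1 and fell 1.35-fold with sh6.

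The calmodulin genes CALM3 and CALM2 and the kinase gene PRKCD, named after their values were seen, differed among themselves. CALM3 had 2758, 2887 and 2595 normalised counts with sh1 and 6805, 6280 and 5896 with sh6, against 5858, 5876 and 5764 in the control. All sh1 libraries of CALM3 lay below the others, as for NRGN, and CALM3 fell 2.12-fold with sh1 (adjusted p = 1.1e-16 in limma), with a log2 difference of 0.11 with sh6 (adjusted p = 0.0701). CALM2 had log2 differences of 0.06 and 0.05 (adjusted p = 0.441 and 0.517 in limma). PRKCD, which encodes protein kinase C delta, fell 1.92-fold with sh1 (adjusted p = 6.2e-13 in limma) and had a log2 difference of 0.06 with sh6 (adjusted p = 0.443).

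REST mRNA did not pass the test with either hairpin. It had 1014, 994 and 1023 normalised counts with sh1 and 926, 1064 and 1051 with sh6, against 885, 945 and 1000 in the control, and the libraries of both hairpins overlapped the controls. The log2 differences were 0.09 and 0.10 (SE 0.0635 each, adjusted p = 0.205 and 0.179 in limma). The sh1 difference was called with voom on recovered counts, at 0.21, and the sh6 difference without sh6 replicate 1, at 0.16. Of 24 tested genes of REST and its corepressors, 7 were higher and 7 lower with sh1, and 11 were higher and 4 lower with sh6. Over all genes tested 29.0% were higher and 30.0% lower with sh1, and 34.2% higher and 33.6% lower with sh6. With voom on recovered counts the sh1 split of this list was 13 higher and 3 lower, while the calls over all genes moved the same way, to 5316 higher and 2858 lower. PRICKLE1, which moves REST into the nucleus, rose 2.09-fold and 4.05-fold. CTDSP2, a small phosphatase that stabilises REST, fell 2.46-fold and 1.63-fold. The histone methyltransferase EHMT2 rose 1.42-fold and 1.69-fold, and its partner EHMT1 rose 1.27-fold and 1.77-fold.

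Of 28 neuronal genes known to be repressed by REST, 5 reached the testing level, with 3 higher and 1 lower with sh1 and 4 higher and 1 lower with sh6. CHRM4 and BDNF reached it only through the hairpin libraries, since their control means of 6.62 and 8.34 normalised counts lie under the 16.2 that the level equals, so for them a higher call was favoured by the filter. Among the other 3 genes, 1 was higher and 1 lower with sh1, and 2 were higher and 1 lower with sh6. The muscarinic receptor gene CHRM4 had 27.9 and 23.4 normalised counts on average with sh1 and sh6, and the neurotrophin gene BDNF 37.3 and 19.2. The adhesion receptor CELSR3 rose 2.49-fold and 2.51-fold, while the sodium channel SCN2A fell 1.64-fold and 2.16-fold. These 4 genes were low, at 6.62 to 56.2 normalised counts on average in the control, and 0 of the 5 tested genes passed a testing level set 1 log2 unit higher. The BDNF difference with sh6 was not called without sh6 replicate 3 or without control replicate 1, and the SCN2A fall with sh1 was not called without sh1 replicate 2.

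**Figure D3:**
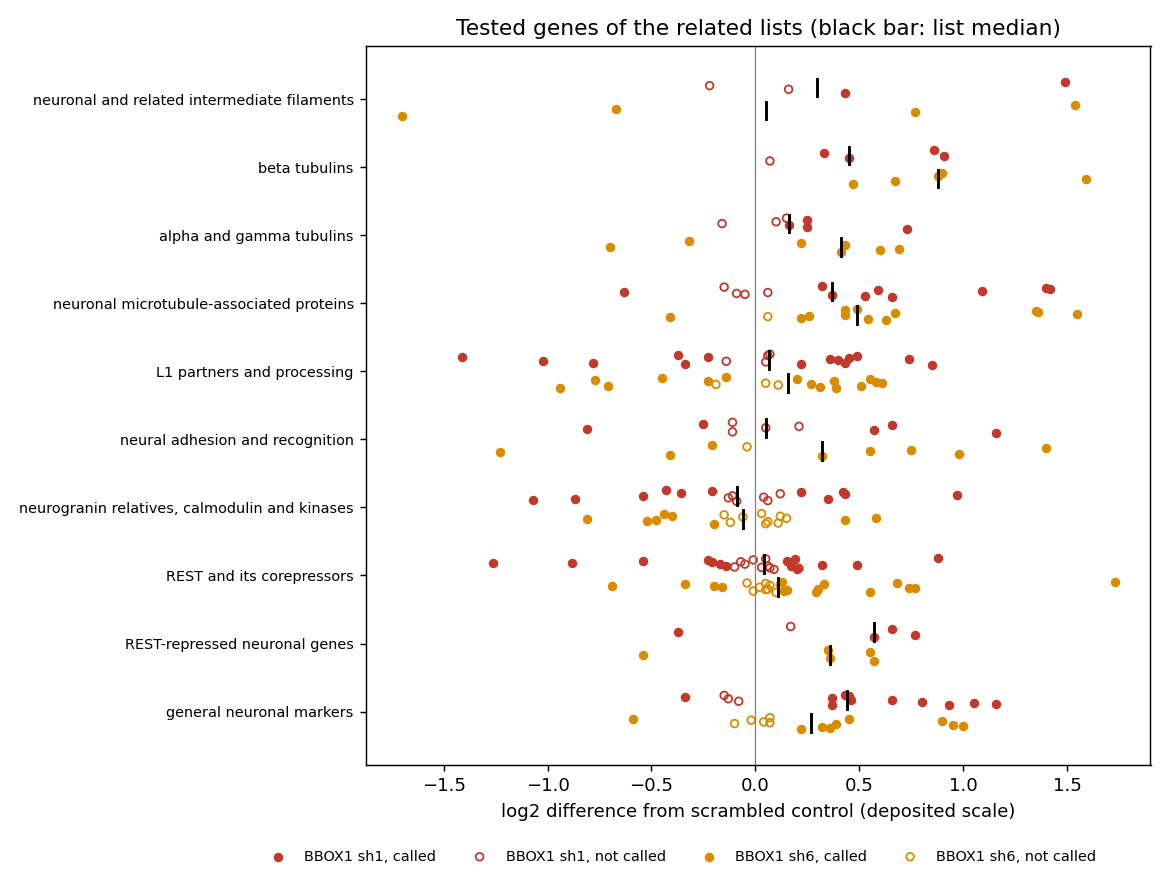
Log2 difference from the scrambled control on the deposited scale for each tested gene of 10 lists, with sh1 above sh6 within each list, filled points called at an adjusted p under 0.05 in limma, open points not called and black bars for list medians. The beta-tubulin points are all above 0 with both hairpins, while the lists of REST corepressors and calmodulin partners lie on both sides of 0.

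Genes that define neurons were mostly absent or low in all 3 groups. Of 9 genes that define neurons, 8 were under the testing level, and RBFOX3, ELAVL4 and STMN2 were at 0 in all 9 libraries. MAP2, the remaining one, had 314 to 487 normalised counts and rose by 1.34-fold and 1.19-fold with sh1 and sh6. Of 14 tested genes in the wider list of neuronal markers, 10 were higher and 1 lower with sh1, and 8 were higher and 1 lower with sh6, with median log2 differences of 0.44 and 0.27. ENO2, the neuronal enolase, rose 2.50-fold and 2.40-fold, the ubiquitin hydrolase UCHL1 2.21-fold and 2.54-fold and the RNA-binding protein ELAVL2 2.24-fold and 1.38-fold. Among neural transcription factors 5 of 12 were higher and 4 lower with sh1, and 8 higher and 3 lower with sh6. All genes tested had 29.0% higher and 30.0% lower with sh1, and 34.2% and 33.6% with sh6. The inhibitors of differentiation ID1 and ID3 both fell, ID1 to 0.50 and 0.186 and ID3 to 0.624 and 0.503 of the control mean. ID4, ID2 and HES6 of the same list, named after their values were seen, went the other way. ID4 rose 1.52-fold and 1.15-fold, and HES6 rose 1.49-fold and 1.62-fold. ID2 rose 1.47-fold with sh6, while its sh1 difference was not called. HES1, a Notch-induced repressor of neurogenesis, fell to 0.754 and 0.603, and LHX2, a homeobox factor of the developing brain, rose 1.29-fold and 2.29-fold, with its sh1 call lost without sh1 replicate 2 or 3 or control replicate 3. SOX4, a factor of neural progenitors, rose 1.54-fold with sh6 and was at 0.907 of the control mean with sh1, a difference called here but not under quantile normalisation, median centring or voom.

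Markers of other cells were also counted. Epithelial and basal breast markers were strong in every library, with summed normalised counts of 169861 to 177167 with sh1 and 175364 to 183244 with sh6, against 169658 to 184241 in the control. All 12 were tested, with 5 higher and 3 lower with sh1 and 4 higher and 4 lower with sh6. Beside them stand 29.0% higher and 30.0% lower of all genes with sh1, and 34.2% and 33.6% with sh6. The basal keratin KRT5 rose 1.51-fold and 1.77-fold, KRT17 rose 1.30-fold and 1.12-fold, and the epithelial factor ELF3 fell to 0.575 and 0.689 of the control mean. Other keratins of the list were lower with sh6. KRT14 rose 1.90-fold with sh1 and fell to 0.648 of the control mean with sh6. KRT6A, named after its values were seen, fell to 0.537 with sh6, and its sh1 difference was not called. Packaging cell markers, which include neurofilament genes that 293T cells express, summed to 44.1 to 53.2 with sh1 and 37.2 to 40.9 with sh6, against 32.0 to 33.1 in the control, with NEFM at 0 and NEFL at or near 0. Their only tested member, LIN28B, was higher with sh1. Of 11 glial markers 3 were tested, with 1 higher and 1 lower with sh1 and 1 higher and 2 lower with sh6, and the water channel gene AQP4 had 10.5 and 10.0 normalised counts on average with sh1 and sh6, against 49.8 in the control. AQP4 reached the testing level only through the control libraries, so for it a lower call was favoured by the filter. SLC1A3, a glutamate transporter of glia, rose 1.18-fold with sh1 and fell to 0.661 of the control mean with sh6. Fibroblast markers summed to 299 to 364 with sh1 and 363 to 449 with sh6, against 344 to 486 in the control, and endothelial and leucocyte markers to 94.4 to 134 with sh1 and 100 to 125 with sh6, against 247 to 274 in the control, led by the receptor KDR. KDR fell to 0.366 and 0.384 of the control mean, and of 2 tested fibroblast genes 2 were lower with sh1 and 1 higher with sh6. PDGFRA, the one that was higher with sh6, lay under the testing level with sh1, at 12.3 normalised counts on average. The part of these markers in the results was not tested. In bulk RNA, fewer cells that express a gene and less RNA of it per cell cannot be told apart.

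The genes most like each of the 4 were found by the root mean square difference over the 6 hairpin libraries of log2 values centred on the control mean. On the deposited scale INA had close company in ARPC4, a subunit of the actin-nucleating Arp2/3 complex (0.09 log2 units). The cargo receptor MCFD2 (0.14) and the chromatin protein HMGB2 (0.17) came next. That scale is compressed at low counts, and the folds of normalised counts lay further apart. With sh1 and sh6 INA was 4.38-fold and 6.44-fold the control mean. ARPC4 was 2.90-fold and 4.15-fold, MCFD2 2.72-fold and 3.36-fold, and HMGB2 2.38-fold and 3.81-fold. TUBB3 was followed within 0.10 log2 units by LMNB2, which encodes lamin B2, LRP4, a receptor of the neuromuscular junction, and RHOB, a small GTPase. NRGN was nearest to GNA12, a G protein alpha subunit (0.22), AP2S1, an adaptor subunit of clathrin coats (0.23), and TTYH3, a tweety family membrane protein (0.23). GNA12 stood at 0.306 of the control mean with sh1 and at 1.10-fold with sh6, beside 0.159 and 1.30-fold for NRGN. The nearest genes to L1CAM were farther off. COL5A2, a fibrillar collagen chain, NPR3, a natriuretic peptide clearance receptor, and CTGF, a matricellular protein, differed from it by 0.64, 0.67 and 0.68 log2 units. COL5A2 was 6.67-fold, NPR3 6.54-fold and CTGF 4.78-fold the control mean with sh1, against 17.1-fold for L1CAM. With sh6 they differed from each other and were all called. COL5A2 was 1.66-fold and CTGF 1.90-fold the control mean, while NPR3 fell 1.71-fold, beside 1.34-fold for L1CAM.

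**Figure D4:**
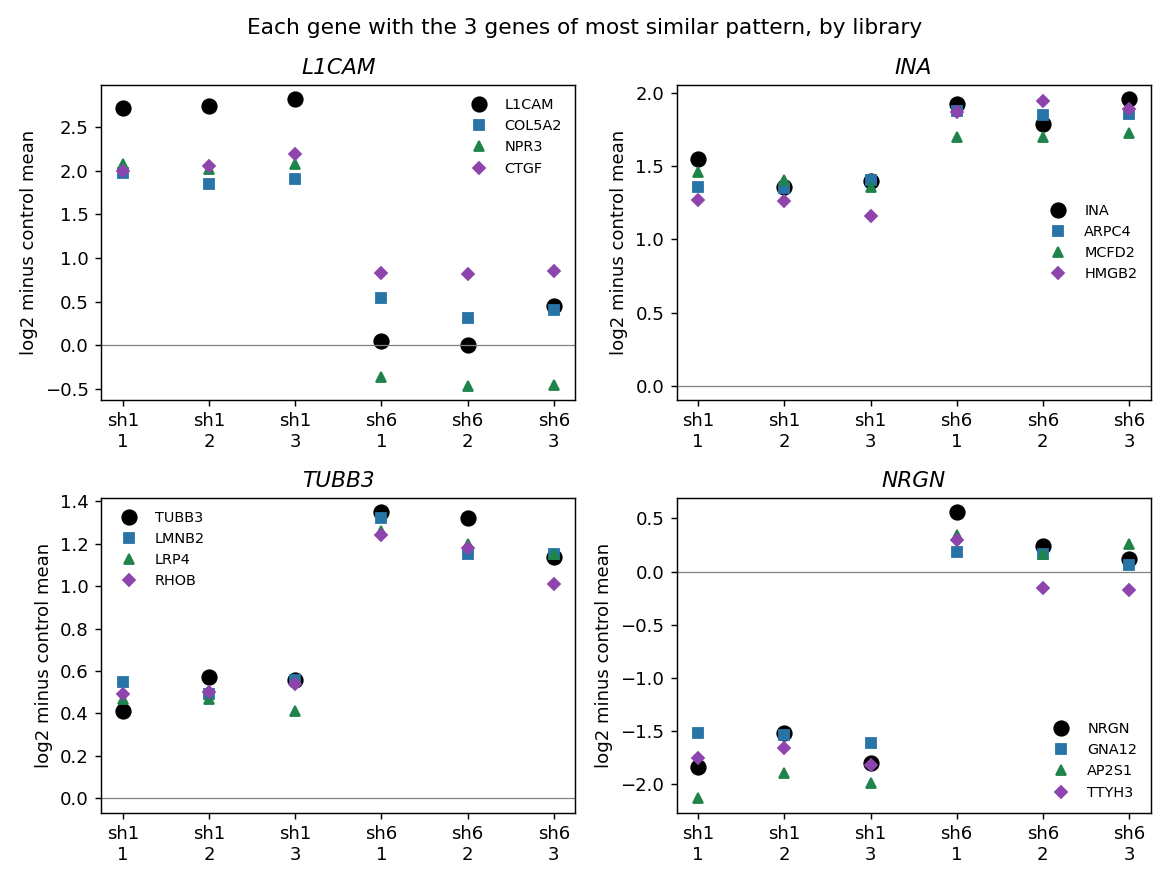
Log2 value minus the control mean in each of the 6 hairpin libraries for L1CAM, INA, TUBB3 and NRGN (black circles) and for the 3 genes of most similar pattern in each panel (coloured symbols). On the deposited scale, compressed at low counts, the neighbours of INA and TUBB3 lie within 0.17 log2 units of them on root mean square. Those of L1CAM stay below it in all 3 sh1 libraries.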

How the data were processed

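Polyadenylated RNA of 9 libraries in 3 groups of 3 was sequenced in pairs of 100-base reads, per the labels' protocols. The authors deposited variance-stabilised log2 values for 27315 gene symbols, and also their own log2 fold changes and adjusted p-values, whose comparison they do not state. Per the submitters' processing notes, the tools were DESeq2, Salmon, STAR and cutadapt, on hg19, with no versions given. The table is called batch-corrected, yet all libraries share the floor 5.02 and 76.8% to 80.5% of low values per library are whole reads within 0.05, once the transformation is inverted.

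Normalised counts are that closed-form inverse, and folds are ratios of their group means. Log2 differences are on the deposited scale, which understates changes of low genes. Recovered reads are the normalised total divided by the worth of 1 read, and floors of 3 reads cover counting error only. Genes with a mean at least 1 above the floor were kept (13165). limma 3.58.1 in R 4.3.3 was fitted to all 9 libraries, with 3 groups and a mean trend, two-sided, with Benjamini-Hochberg adjustment over all kept genes. The fit was tested on simulated data. Python 3.11.15 with numpy 2.4.6, pandas 2.3.3 and matplotlib 3.10.9 did the rest.

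The 4 genes and the 19 gene lists were chosen with earlier results of these data known. Named genes are the 4 genes, BBOX1, REST, all tested members of the L1, filament and beta-tubulin lists, up to 4 genes per other list called with both hairpins in 1 direction, up to 2 called in opposite directions, and 3 nearest patterns per gene. Symbols turned into dates, 27 in all, are not named, and 1 gene of the lists is not reported here. Positions come from GENCODE 29 and promoters from RefSeq, both on GRCh38, while the authors' values rest on hg19.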

Additional observations from a re-analysis of the deposited data

Results flagged for a closer look

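Of 181 tested genes of the lists, 7 were called higher with sh1 and lower with sh6 and 5 the reverse, beside 3.06% and 3.33% of all genes tested. They were picked for opposite calls against the same control libraries, so their sh6 minus sh1 log2 differences are a description. NEFH had the largest of these, -2.13, and was higher with sh1 and lower with sh6. PPP3CB (-0.82), AGTPBP1 (-1.02), HDAC6 (-0.90), SLC1A3 (-0.82) and KRT14, a basal keratin (-0.81), had the same directions, as did TTLL5, a tubulin ligase-like gene outside the naming rule and named after its values were seen (-0.41). ITGB1 (1.29), DCLK1 (1.06), SOX4 (0.74), TCF7L2 (0.83) and PDGFRA, a growth factor receptor of fibroblasts (0.82), were lower with sh1 and higher with sh6. The sh1 calls of SOX4 and TCF7L2 were lost with voom on recovered counts and without some single libraries.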

How the results depend on the processing

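All differences of the 4 genes kept their direction under all alternatives run, but sizes depended on the scale. On the log2 of the recovered count plus 1, L1CAM differed from control by 4.05 with sh1 and 0.36 with sh6 and by -3.69 between hairpins, INA by 2.11 and 2.67, and NRGN by -2.63 with sh1 and 3.0 between hairpins. With voom on recovered counts the same values were 4.19, 0.37 and -3.81 for L1CAM, 2.24 and 2.69 for INA, and -2.54 and 2.92 for NRGN, and TUBB3 differed by 0.64 with sh1. The cause was not tested, although the deposited scale is compressed at low counts by construction. With 1 library left out at a time, the L1CAM difference with sh6 ranged between 0.03 and 0.25 and that of NRGN between 0.18 and 0.4. TUBB was -0.03 between sh6 and sh1 under quantile normalisation, against 0.40. A replicate block gave 7950, 9049 and 8002 calls for sh1, sh6 and sh6 against sh1, beside 7760, 8922 and 7861 without it. It changed no call against the control of the genes named in the text that were checked. ANK1, BACE1, EZR, RDX, ID2, ID4, HES6, TUBA4A, TUBG2 and KRT6A were not checked. The deviations of same-numbered libraries had correlations of -0.128 to 0.176, and the best of differently numbered libraries -0.072 to 0.168. In some pairs of groups the same number was the higher, in others not. These values cannot decide whether same-numbered libraries pair, the more so as the table is called batch-corrected. The 6 total counts of calls stayed within 1.5 times in all alternatives, but not their direction. With voom on recovered counts, which scales to library totals, 5316 genes were higher and 2858 lower with sh1, and 2966 higher and 4948 lower with sh6 than with sh1.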
